A study of Mus musculus with 10 samples.

Results

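The genes described here encode enzymes of peroxisomal fatty acid oxidation and proteins that build the peroxisome, 38 genes of the 18193 named on the array. They were taken from a list of symbols, each represented by the probe set with the highest mean over the 10 arrays. That choice of probe set used no difference between the groups, but the genes were listed with earlier results of these data known. The list held 12 oxidation enzymes, 12 peroxins (the Pex genes, which build the organelle), 5 genes that handle acyl-CoA, 3 ABC transporters of the peroxisomal protein family, 3 genes of ether lipid synthesis and 3 other membrane proteins. The tissue was the aorta of male mice, in 2 groups, NPAS2 mutants on a C57Bl/6J background (5 arrays) and wild type C57Bl/6 mice (5 arrays). NPAS2 is a transcription factor of the circadian clock. Both groups were kept for at least 2 weeks in 12 h light and 12 h dark, then for at least 30 h in constant darkness, and the vessel was perfused and taken at zeitgeber time 14 h. What kind of mutation it is, and how old the mice were, is not stated in the sources used here. They also do not say whether each array held a separate animal, so a p-value sets a difference against the variation among arrays, which may be technical. The labels call the tissue thoracic aorta in one place and a longer piece, ending beyond the femoral branching, in another. They also name a different form of the strain for each group, so any difference of strain form cannot be told apart from genotype here.

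Peroxisomes shorten very long chain, branched chain and dicarboxylic fatty acids by a beta-oxidation pathway of their own. An acyl-CoA oxidase opens the cycle and yields hydrogen peroxide, a multifunctional enzyme hydrates and dehydrogenates the product, and a thiolase releases acetyl-CoA. In rodent liver many of these genes are induced by the lipid-activated receptor PPAR alpha, and in brown fat peroxisomes are abundant. Matrix enzymes are imported after translation by receptors such as PEX5 and PEX7, through a docking complex that includes PEX13 and PEX14.

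The stretches below are the 250 bases before the annotated start of 4 genes, from RefSeq on assembly GRCm38.p6. Acaa1b and Ehhadh are shown because they rose in the mutants, Acaa1a because it is the near copy of Acaa1b, and Gnpat because its stretch holds the E-box CACGTG, the DNA element that clock factors of the NPAS2 type bind. Capitals mark the CCAAT boxes, read on either strand, and the CACGTG element.
Acaa1b, chr9:119157094-119157343, minus strand: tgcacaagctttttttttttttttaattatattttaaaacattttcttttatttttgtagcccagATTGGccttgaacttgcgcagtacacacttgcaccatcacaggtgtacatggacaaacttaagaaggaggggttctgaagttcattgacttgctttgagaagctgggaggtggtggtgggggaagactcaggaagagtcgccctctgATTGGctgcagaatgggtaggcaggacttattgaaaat
Acaa1a, chr9:119341044-119341293, plus strand: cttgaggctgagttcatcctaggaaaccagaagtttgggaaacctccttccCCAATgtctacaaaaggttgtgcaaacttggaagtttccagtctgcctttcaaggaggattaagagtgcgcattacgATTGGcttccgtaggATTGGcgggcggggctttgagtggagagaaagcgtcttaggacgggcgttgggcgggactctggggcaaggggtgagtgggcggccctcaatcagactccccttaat
Ehhadh, chr16:21787835-21788084, minus strand: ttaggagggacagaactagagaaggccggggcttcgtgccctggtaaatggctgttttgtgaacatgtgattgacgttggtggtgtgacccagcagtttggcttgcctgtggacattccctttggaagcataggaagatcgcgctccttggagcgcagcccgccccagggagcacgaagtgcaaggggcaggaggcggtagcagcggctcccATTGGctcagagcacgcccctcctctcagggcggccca
Gnpat, chr8:124862783-124863032, plus strand: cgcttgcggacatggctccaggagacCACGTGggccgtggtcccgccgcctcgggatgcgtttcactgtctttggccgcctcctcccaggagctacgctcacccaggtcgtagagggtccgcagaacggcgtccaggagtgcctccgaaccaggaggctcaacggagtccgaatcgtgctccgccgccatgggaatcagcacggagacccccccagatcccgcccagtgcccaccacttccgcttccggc

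Acaa1b had 2 CCAAT boxes in its stretch, Acaa1a had 3 and Ehhadh had 1, and none of these 3 stretches held CACGTG. The E-box of Gnpat began 224 bases before its start. Windows of 300 bases, from 250 before to 50 after a start, were found for 31 of the 38 genes, 37 windows in all, and both strands were searched. CACGTG was in 2 of the 37 windows (5.41%), those of Acot4 and Gnpat, against 7.15% of all 32851 windows of that length. CCAAT was in 19 of the 37 (51.4%), against 37.4% of all windows. The exact form of the element that PPAR receptors bind, 2 repeats of AGGTCA with 1 base between them, was in 0 of the 37 and in 0.0396% of all windows. A single AGGTCA, which also lies within that element, was in 6 of the 37 (16.2%), against 16.3%. These matches describe letters in a short window and were not tested.

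Among the peroxisomal genes, Acaa1b and Ehhadh rose in NPAS2 mutant aorta, Acaa1b to 2.11 times and Ehhadh to 1.75 times the wild type level. All 10 oxidation enzymes bright enough to be tested had a higher mean in the mutants, whereas the Pex genes were spread around a small positive change. A probe set entered the test when it was brighter than the median of its own array on at least 5 arrays. Of the 38 genes 34 passed that filter, each on all 10 arrays, so none entered through the mutant arrays alone, and 4 were too dim. Of the 34, 25 had a higher mean in the mutants and 9 a lower one. Calls were made at a limma p under 0.05 after adjustment by Benjamini-Hochberg across the 22340 tested probe sets. By that rule 2 of the 34 were called higher and 0 lower, where 0.0940% of all tested probe sets were called higher. At an unadjusted p under 0.05, 12 were higher, against a background of 4.75%, and 0 were lower, against 10.6%. The 5 mutant arrays lay entirely above the 5 wild type arrays for 4 genes (Acaa1b, Ehhadh, Scp2 and Acot8), against a background of 1.50%, and entirely below for 0, against 2.50%. With 1 probe set per gene over 10943 genes, as the members were chosen, the shares were 0.119% called higher, 5.21% higher at the unadjusted threshold and 1.82% entirely above.

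**Figure D1:**
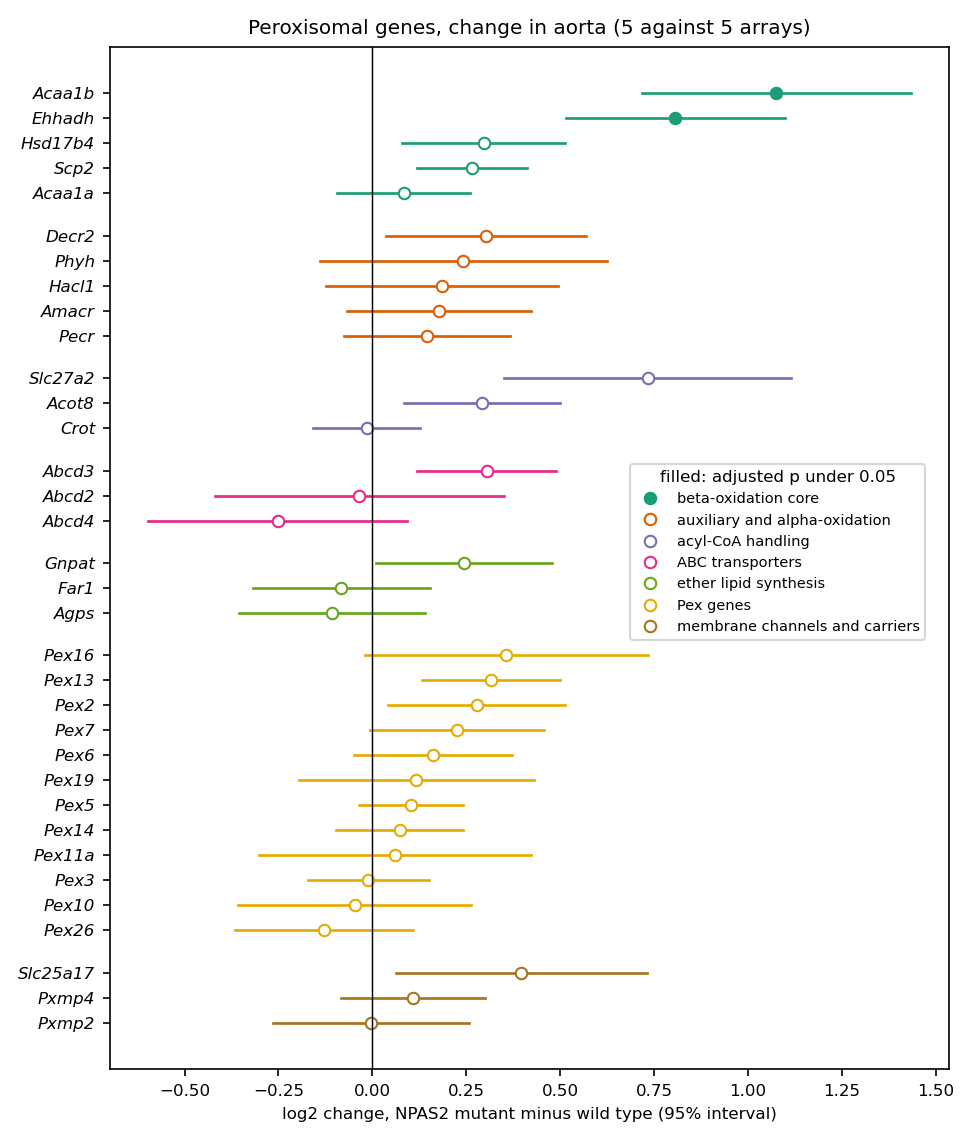
The log2 change (NPAS2 mutant minus wild type, x axis) of the 34 tested peroxisomal genes, grouped by role, with 95% limma intervals and filled points for an adjusted p under 0.05. Acaa1b (1.08) and Ehhadh (0.81) are the filled points, and the intervals of most Pex genes cross 0.

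The arrays themselves resembled each other closely. The deposited values ran between 1.10 and 14.74 on the log2 scale, and correlations across probe sets were 0.988 to 0.996 within groups and 0.986 to 0.996 between them. Smooth muscle markers were bright, with Myh11 at 13.22 in the mutants and 13.40 in wild type, and Acta2 at 14.38 in the mutants and 14.41 in wild type. Of the 10 smooth muscle markers 9 had a lower mean in the mutants (median log2 change -0.19), 5 of them at an unadjusted limma p under 0.05, and 0 passed the test. In 2 of them, Myh11 and Lmod1, the mutant arrays lay entirely below wild type. Over all tested probe sets 42.4% had a higher mutant mean, 10.6% were lower at the unadjusted threshold and 2.50% lay entirely below. The shift of the smooth muscle markers ran opposite to that of the oxidation enzymes, and its part in the results was not tested. In a bulk sample, fewer cells of a type and less RNA per cell cannot be told apart. The transcript of Npas2 itself was faint on every array. Its brighter probe set read 3.43, 3.38, 3.41, 3.45 and 3.47 in the mutants, against 3.44, 3.71, 3.96, 3.94 and 3.48 in wild type (change -0.28 ± 0.10 SE, limma adjusted p 0.249), so its signal did not check the genotype labels. Of the peroxisomal genes 2 lie on the chromosome of Npas2, Pecr and Pex19, and 0 lie within 20 Mb of it.

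The beta-oxidation cycle itself was represented by 7 genes. Ehhadh encodes the multifunctional enzyme that carries out the middle steps of the cycle for straight chain and dicarboxylic substrates. On the log2 scale Ehhadh read 6.91, 6.75, 6.74, 6.92 and 6.57 on the mutant arrays, against 5.94, 5.54, 6.31, 5.94 and 6.14 on the wild type arrays. The lowest mutant array was above the highest wild type array. The means were 6.78 ± 0.14 in mutants and 5.97 ± 0.29 in wild type (SD, n = 5 each), a change of 0.81 ± 0.13 (SE) with a 95% interval of 0.52 to 1.10 and a limma adjusted p of 0.0438.

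Acaa1b encodes a peroxisomal thiolase, the last enzyme of the cycle. It read 7.90, 7.39, 7.16, 7.32 and 7.48 on the mutant arrays, against 6.47, 6.26, 6.78, 6.37 and 5.98 on the wild type arrays. The groups did not overlap, and mutant array F12 was the highest. The means were 7.45 ± 0.28 in mutants and 6.37 ± 0.29 in wild type (SD, n = 5 each), a change of 1.08 ± 0.16 (SE) with an interval of 0.72 to 1.43 and a limma adjusted p of 0.0308. The call of Ehhadh and that of Acaa1b each rested on the whole set of arrays. When each array was left out in turn, the adjusted p of Ehhadh ran between 0.0374 and 0.113 and passed only without wild type F14_2, and that of Acaa1b ran between 0.0479 and 0.0804 and passed only without mutant F18 or without wild type F15.

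Acaa1a is the other gene for this thiolase in mice. It read 5.87, 5.83, 5.93, 5.81 and 5.99 in the mutants, against 5.86, 5.98, 5.86, 5.77 and 5.55 in wild type. The 2 groups overlapped, with wild type F16 and F17 below every mutant array and 1 mutant array above every wild type array. The change of Acaa1a was 0.08 ± 0.08 (SE, interval -0.09 to 0.26, limma adjusted p 0.626), and its other probe set gave -0.01 (adjusted p 0.926). The log2 level of Acaa1b minus that of Acaa1a averaged 1.56 ± 0.29 on mutant arrays (1.23 to 2.03) and 0.57 ± 0.24 on wild type arrays (0.29 to 0.92). The gap was thus larger by 0.99 in the mutants. The pair was chosen after its values were seen, so the gap is a description with no test. The platform annotation assigns 2 further probe sets to both thiolase genes. One of these averaged 8.01 in mutants and 7.79 in wild type (change 0.22, adjusted p 0.216), and the other averaged 7.89 in mutants and 7.69 in wild type (change 0.20, adjusted p 0.230). The copies are near-identical, so a probe set named for one of them may bind transcripts of the other.

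Scp2 encodes sterol carrier protein X, the thiolase for branched chain substrates, together with a lipid carrier. It read 11.31, 11.29, 11.46, 11.35 and 11.52 in the mutants, against 11.16, 11.05, 11.25, 11.06 and 11.08 in wild type. The groups did not overlap, but the change of 0.26 ± 0.07 (SE) did not pass the test (limma adjusted p 0.124). The other 3 Scp2 probe sets that were tested gave changes of 0.23, 0.32 and 0.45, with adjusted p between 0.122 and 0.256. Hsd17b4 encodes the multifunctional enzyme for branched and very long chains. Its means were 9.78 ± 0.17 in mutants and 9.48 ± 0.16 in wild type (SD, n = 5 each), with a change of 0.30 ± 0.10 (SE, adjusted p 0.203), and the groups overlapped.

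The 2 oxidases on the list were too dim to be tested in the fit. Acox2, the oxidase for bile acid intermediates, averaged 2.52 ± 0.06 in mutants and 2.50 ± 0.06 in wild type (SD, n = 5 each, exact permutation p 0.548). Acox3, an oxidase for branched chains, averaged 3.15 ± 0.28 in mutants and 2.99 ± 0.15 in wild type (SD, n = 5 each, exact permutation p 0.286). A difference in either oxidase was not detectable at these levels.

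**Figure D2:**
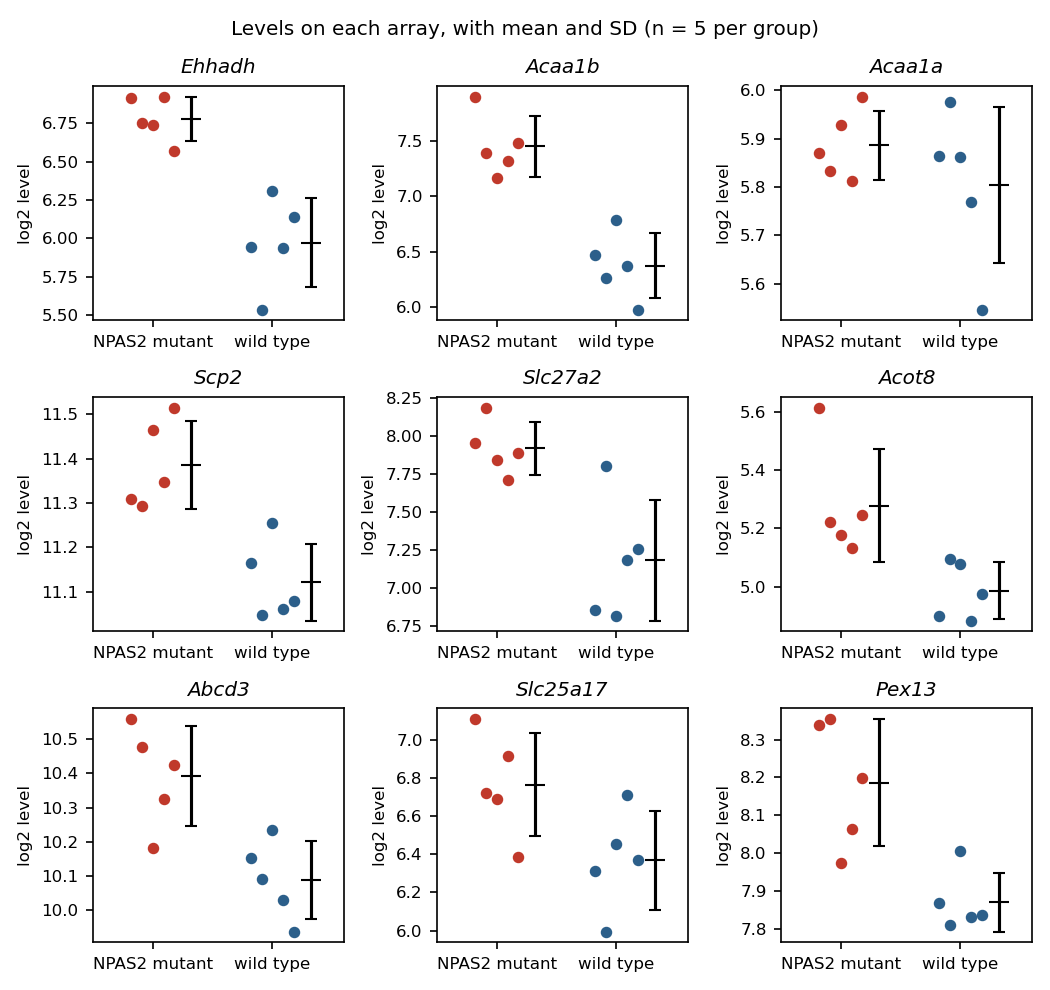
Log2 level on each array (points) with the mean and SD (bars, n = 5 per group) of 9 peroxisomal genes, NPAS2 mutant left and wild type right in each panel, each panel on its own scale. For Ehhadh, Acaa1b, Scp2 and Acot8 every mutant point is above every wild type point, while Acaa1a overlaps.

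The auxiliary enzymes prepare substrates that the cycle cannot use directly. Decr2, the peroxisomal dienoyl-CoA reductase, averaged 5.01 ± 0.24 in mutants and 4.71 ± 0.17 in wild type (SD, n = 5 each, change 0.30 ± 0.12 SE, limma adjusted p 0.265). Phyh and Hacl1 act in turn in the alpha-oxidation of phytanic acid. Phyh averaged 9.75 ± 0.36 in mutants and 9.51 ± 0.24 in wild type (SD, n = 5 each, change 0.24 ± 0.17 SE, adjusted p 0.509). Hacl1 averaged 6.33 ± 0.28 in mutants and 6.14 ± 0.20 in wild type (SD, n = 5 each, change 0.18 ± 0.14 SE, adjusted p 0.532). Amacr, the racemase that sets branched acyl-CoAs in the form the cycle accepts, differed by 0.18 (adjusted p 0.452). Pecr, a peroxisomal enoyl-CoA reductase, differed by 0.15 (adjusted p 0.496). All 5 had a higher mean in the mutants, their groups overlapped, and 0 passed the test.

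Acyl-CoA handling covers the activation of fatty acids and the release of products. Slc27a2 encodes a very long chain acyl-CoA synthetase that also carries fatty acids into cells. It read 7.95, 8.18, 7.84, 7.71 and 7.89 in the mutants, against 6.85, 7.80, 6.82, 7.18 and 7.26 in wild type. Mutants were above every wild type array but F14_2, which lay among them. The means were 7.92 ± 0.17 in mutants and 7.18 ± 0.40 in wild type (SD, n = 5 each), with a change of 0.73 ± 0.17 (SE, interval 0.35 to 1.12) that did not pass the test (limma adjusted p 0.120). Without wild type F14_2 the change was 0.89 with an adjusted p of 0.0315.

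Acot8 encodes a peroxisomal thioesterase of broad specificity. Its levels were 5.61, 5.22, 5.18, 5.13 and 5.25 in the mutants, against 4.90, 5.10, 5.08, 4.88 and 4.98 in wild type. The groups did not overlap, and mutant F12 stood above the other mutants. The change was 0.29 ± 0.09 (SE, limma adjusted p 0.191). Crot, which turns shortened acyl-CoAs into carnitine esters, differed by -0.02 (interval -0.16 to 0.13, adjusted p 0.926). Acot3 and Acot4, 2 further thioesterases, were below the filter. Acot3 averaged 2.62 in mutants and 2.59 in wild type, with overlapping groups and an exact permutation p of 0.0159, not adjusted for the 4 dim genes compared in this way, and Acot4 averaged 2.35 in mutants and 2.33 in wild type (exact permutation p 0.238).

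Of the ABC transporters, those encoded by Abcd2 and Abcd3 carry fatty acids or their CoA esters across the peroxisomal membrane. Abcd3 encodes an abundant protein of that membrane that carries branched and dicarboxylic substrates. It read 10.56, 10.48, 10.18, 10.33 and 10.42 in the mutants, against 10.15, 10.09, 10.24, 10.03 and 9.94 in wild type. The groups overlapped through mutant F18 and wild type F15. The change was 0.30 ± 0.08 (SE, limma adjusted p 0.150). Abcd2, which carries very long chain acyl-CoAs, averaged 5.84 ± 0.39 in mutants and 5.88 ± 0.20 in wild type (SD, n = 5 each, adjusted p 0.940). Abcd4, whose human protein acts in cobalamin export from lysosomes, averaged 4.15 ± 0.29 in mutants and 4.40 ± 0.26 in wild type (SD, n = 5 each, adjusted p 0.449).

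Ether lipids such as plasmalogens are begun in the peroxisome. Gnpat, the acyltransferase of the first step, averaged 7.79 ± 0.15 in mutants and 7.55 ± 0.20 in wild type (SD, n = 5 each, change 0.24 ± 0.11 SE, limma adjusted p 0.306). Agps, which puts in the ether bond, averaged 5.28 ± 0.10 in mutants and 5.38 ± 0.25 in wild type (SD, n = 5 each, adjusted p 0.654). Far1, which supplies the fatty alcohol, averaged 8.07 ± 0.21 in mutants and 8.15 ± 0.15 in wild type (SD, n = 5 each, adjusted p 0.720). Gnpat thus had the higher mean in the mutants and the other two in wild type, and 0 of the 3 passed the test.

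The peroxins were compared as a set with the enzymes they import. Of the 12 Pex genes 9 had a higher mean in the mutants and 3 a lower one. The test was passed by 0, against 0.215% of all tested probe sets. At an unadjusted limma p under 0.05, 2 were higher, against 4.75%, and 0 were lower, against 10.6%. In 0 were the groups apart, against 1.50% with the mutants above and 2.50% with them below. Pex13, a membrane protein of the docking complex, read 8.34, 8.36, 7.97, 8.06 and 8.20 in the mutants, against 7.87, 7.81, 8.01, 7.83 and 7.84 in wild type. Only mutant F18 fell within the range of wild type arrays. The change was 0.32 ± 0.08 (SE, limma adjusted p 0.137), and its second probe set gave 0.11 (adjusted p 0.668).

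Pex16, which inserts membrane proteins into the forming organelle, read 7.91, 7.36, 6.97, 7.18 and 6.95 in the mutants, against 7.09, 6.80, 7.10, 6.70 and 6.91 in wild type. Mutant F12 was the highest array, 2 mutant arrays lay within the wild type range, and the change was 0.36 ± 0.17 (SE, limma adjusted p 0.347). Pex2, part of the ubiquitin ligase that recycles import receptors, averaged 7.63 ± 0.20 in mutants and 7.36 ± 0.16 in wild type (SD, n = 5 each, change 0.28 ± 0.11 SE, limma adjusted p 0.256). Pex10, of the same ligase, differed by -0.05 (adjusted p 0.890). The import receptors Pex5 and Pex7 differed by 0.10 (adjusted p 0.445) and by 0.23 (adjusted p 0.334). Pex14, which docks them, differed by 0.07 (adjusted p 0.659).

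Pex3 and Pex19, which bring in membrane proteins with Pex16, differed by -0.01 (adjusted p 0.955) and 0.12 (adjusted p 0.704). Pex6, an ATPase that pulls receptors back out, differed by 0.16 (adjusted p 0.431), and Pex26, its membrane anchor, by -0.13 (adjusted p 0.568). Pex11a, which promotes division and elongation of peroxisomes, differed by 0.06 (adjusted p 0.879). Other probe sets of the same genes gave larger differences in places, 0.36 for Pex6 (adjusted p 0.163), 0.30 for Pex11a (adjusted p 0.370), 0.23 for Pex19 (adjusted p 0.362) and 0.21 for Pex3 (adjusted p 0.323). When all probe sets of a gene were averaged, the median change was 0.16 for the Pex genes and 0.25 for the oxidation enzymes. Of the 14 peroxisomal genes with several tested probe sets, 4 had changes of both signs, namely Acaa1a, Agps, Pex3 and Pex5. Over all probe sets of the list, 41 of the 58 tested had a higher mean in the mutants, and 2 were called.

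Of the other membrane proteins, Slc25a17, a carrier of CoA and other cofactors, read 7.11, 6.72, 6.69, 6.92 and 6.39 in the mutants, against 6.31, 5.99, 6.46, 6.71 and 6.37 in wild type. The groups overlapped, with mutant F20 close to the wild type centre, and the change was 0.40 ± 0.15 (SE, limma adjusted p 0.254). Pxmp2, a channel of the membrane, averaged 6.12 ± 0.23 in mutants and 6.13 ± 0.17 in wild type (SD, n = 5 each, adjusted p 0.992). Pxmp4 averaged 5.62 ± 0.18 in mutants and 5.51 ± 0.09 in wild type (SD, n = 5 each, adjusted p 0.555).

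Set side by side, the oxidation enzymes had a larger median change than the Pex genes. The median log2 change was 0.25 over the 10 tested oxidation enzymes (range 0.08 to 1.08) and 0.11 over the 12 Pex genes (range -0.13 to 0.36), while that of all 22340 tested probe sets was -0.03. A higher mutant mean was found in 10 of 10 oxidation enzymes and 9 of 12 Pex genes, against 42.4% of all tested probe sets and 44.1% of genes taken by their brightest probe set. The mean log2 level of the oxidation enzymes was 7.31 to 7.64 on mutant arrays, against 7.01 to 7.23 on wild type arrays, without overlap. Without Acaa1b and Ehhadh it was 7.36 to 7.70 on mutant arrays, against 7.24 to 7.52 on wild type arrays, and these overlapped. The mean log2 level of the Pex genes was 6.28 to 6.59 on mutant arrays, against 6.22 to 6.37 on wild type arrays, and these overlapped.

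The difference between the sets within an array was 1.03 to 1.15 in the mutants (1.08 ± 0.05, SD, n = 5), against 0.79 to 0.91 in wild type (0.84 ± 0.05, SD, n = 5), so the groups were apart. This separation rested on Acaa1b and Ehhadh. Without them the difference was 1.09 to 1.27 in the mutants, against 1.02 to 1.24 in wild type, and the groups overlapped. The 8 remaining oxidation enzymes still all had a higher mean in the mutants, with a median of 0.21, and 1 of them, Scp2, had groups that did not overlap. These summaries have no test, because the genes were listed with earlier results known.

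**Figure D3:**
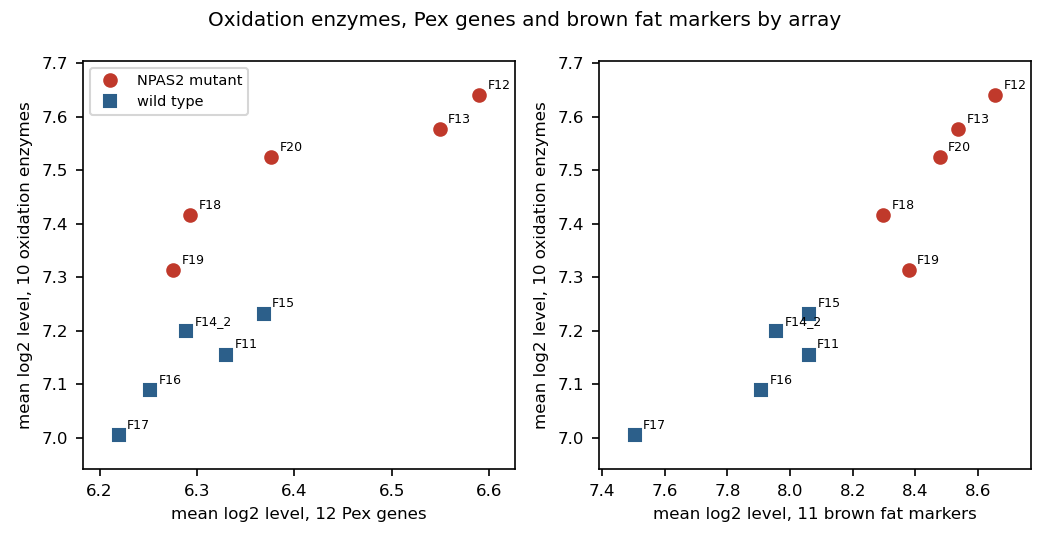
Mean log2 level of the 10 tested oxidation enzymes (y axis) on each array against that of the 12 Pex genes (left) and of the 11 tested brown fat markers (right), with NPAS2 mutant arrays as circles and wild type arrays as squares. Mutant arrays lie at 7.31 to 7.64 and wild type arrays at 7.01 to 7.23 on the y axis, and on the brown fat axis mutants lie at 8.30 to 8.66 and wild type at 7.50 to 8.06. Without Acaa1b and Ehhadh, which the y axis includes, the means of the oxidation enzymes overlap between the groups.

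Single arrays contributed unequally. Mutant arrays held the highest value of 27 of the 34 tested genes, 12 of them on F12, 9 on F13, 5 on F20, 1 on F19 and 0 on F18. Wild type arrays held the lowest value of 25 genes, 10 of them on F17 and 7 on F14_2. The high values thus gathered on part of the mutant arrays and the low ones on part of the wild type arrays. The median change of the Pex genes was 0.04 without mutant F12 and 0.18 without mutant F19, and that of the oxidation enzymes stayed between 0.20 and 0.31 whichever array was left out.

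Most brown fat markers, like the oxidation enzymes, had a higher mean in the mutants. Of 14 listed markers 12 were measured and 11 tested, 8 of the 11 had a higher mean in the mutants, 0 passed the test and 7 were higher at an unadjusted p under 0.05. Over all tested probe sets 42.4% had a higher mean, 4.75% were higher at that threshold and 1.50% had all mutant arrays above wild type. Ucp1, the uncoupling protein of brown fat, averaged 12.42 ± 0.29 in mutants and 11.42 ± 0.52 in wild type (SD, n = 5 each, moderated SE of the difference 0.24, limma adjusted p 0.120). Cidea, a lipid droplet protein, differed by 0.23 (adjusted p 0.482). The 3 tested markers with a lower mutant mean were Prdm16 (change -0.27), Lhx8 (-0.11) and Ebf2 (-0.02), each with overlapping groups. The list thus did not shift as a whole, and why its markers differed in direction was not tested. The mean level of the 11 tested markers did not overlap between mutants (8.30 to 8.66) and wild type (7.50 to 8.06). Elovl3 had the largest change, 2.57 (limma adjusted p 0.111), and was the 1 marker whose groups did not overlap. It averaged 6.73 ± 0.66 in mutants and 4.15 ± 1.34 in wild type (SD, n = 5 each). It thus weighs most in the group difference of this mean, which is also the covariate used below. A mean without Elovl3 was not examined. The summed linear signal of the 12 measured markers was 16436 to 24791 in mutants, against 11011 to 17801 in wild type. None of the 12 was at 0; Zic1 was the marker too dim to test, at 2.85 in mutants and 2.81 in wild type.

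When the mean of the brown fat list was added to the fit as a covariate, 0 of 22340 probe sets were called in limma, with 1516 at an unadjusted p under 0.05. Of the peroxisomal genes 4 reached that threshold, Ehhadh and Slc27a2 with a higher and Abcd4 (-0.66) and Pex3 (-0.29) with a lower fitted mutant level. The median change became 0.01 for the oxidation enzymes and -0.09 for the Pex genes. Of the 25 peroxisomal genes with a higher mutant mean, 22 had a smaller change in that fit and 11 of them turned below 0. Ehhadh kept its size, at 0.86 ± 0.27 (SE, adjusted p 0.633), while its error was larger than without the covariate. Slc27a2 was likewise at 0.84 ± 0.35 (SE, adjusted p 0.716). Acaa1b was at 0.33 ± 0.18 (SE, adjusted p 0.782) and Hsd17b4 at 0.00 ± 0.17 (SE, adjusted p 0.998). Because the marker mean and the genotype are apart on these arrays, a share of brown fat in the sample and genotype cannot be told apart here.

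**Figure D4:**
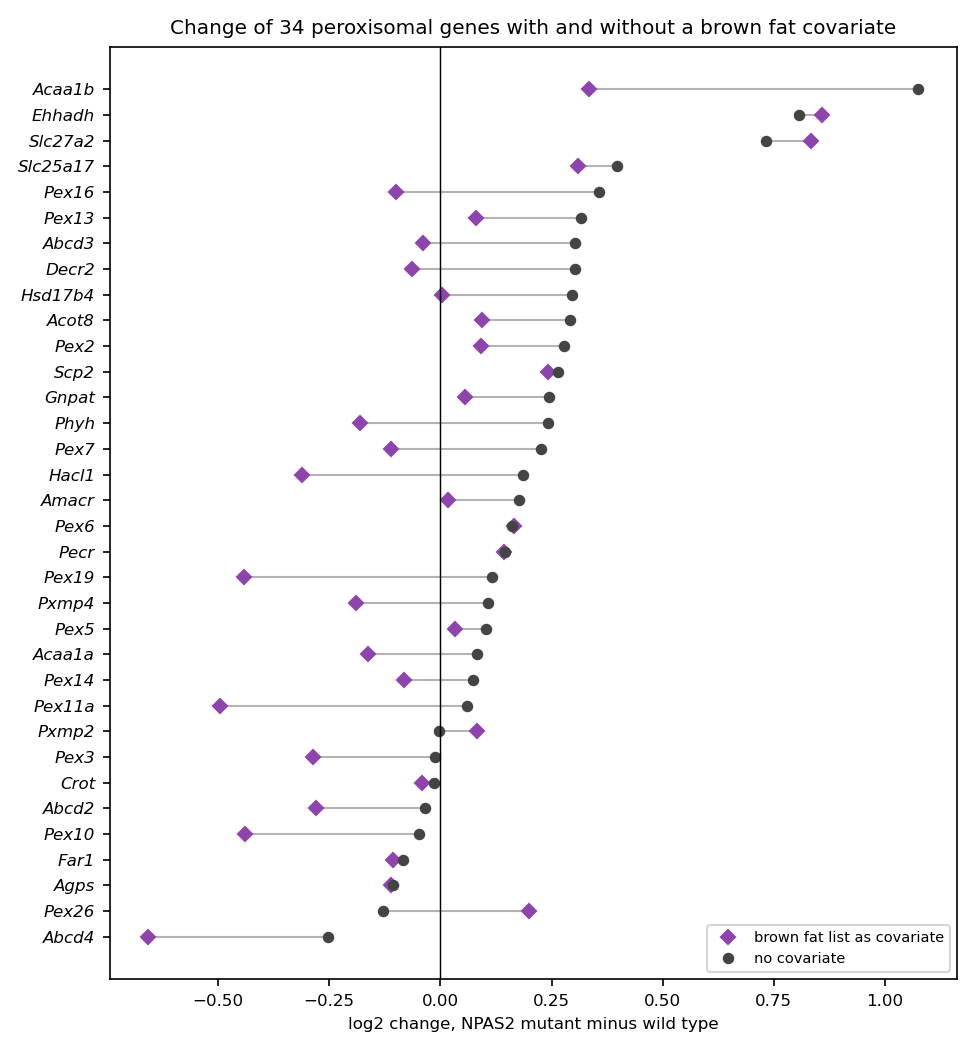
Log2 change (NPAS2 mutant minus wild type, x axis) of the 34 tested peroxisomal genes without a covariate (circles) and with the mean of the brown fat markers as a covariate (diamonds). Ehhadh stays near 0.81 to 0.86, Acaa1b is at 0.33 with the covariate and at 1.08 without it, and 11 genes cross below 0.

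Other tissues that border the vessel gave the following values, whose part in the result was not tested. In the general fat list Adipoq was at 13.06 in mutants and 12.95 in wild type and Fabp4 at 14.68 in mutants and 14.57 in wild type, and 9 of its 10 tested members had a higher mutant mean (median 0.11). The exception, Lep, averaged 5.48 ± 0.45 in mutants and 6.26 ± 0.31 in wild type (SD, n = 5 each, limma adjusted p 0.155), and Agpat2 differed by 0.44 and Cidec by 0.28. In all lists of this paragraph 0 markers passed the test, and the markers named beyond the leading 2 of a list were picked after their values were seen. Over all tested probe sets 42.4% had a higher mutant mean and 4.75% were higher at an unadjusted limma p under 0.05. The mutant arrays lay entirely above wild type in 1.50% of them and entirely below in 2.50%. Liver and kidney, both rich in peroxisomes, were close to absent by their defining markers, since Alb averaged 2.92 in mutants and 2.67 in wild type, Apoa1 2.57 in mutants and 2.54 in wild type, and Umod 2.90 in mutants and 2.85 in wild type. Of the measured markers 10 of 11 for liver and 6 of 7 for kidney were too dim to test. The liver marker that could be tested, Cyp2e1, averaged 12.55 in mutants and 12.28 in wild type (limma adjusted p 0.383). Macrophage markers had a higher mutant mean in 8 of 9, with Cd68 at 4.82 in mutants and 4.59 in wild type and Csf1r at 8.99 in mutants and 8.82 in wild type. Of these markers 3 were higher at an unadjusted p under 0.05, Cd14 by 0.45, Lyz2 by 0.36 and Adgre1 by 0.35. Of 10 endothelial markers 7 had a higher mutant mean. Pecam1 averaged 7.72 in mutants and 8.05 in wild type, without overlap (limma adjusted p 0.220), and Cdh5 averaged 5.24 in mutants and 5.18 in wild type. Emcn averaged 6.42 in mutants and 5.92 in wild type, also without overlap (limma adjusted p 0.164). All 9 fibroblast markers had a higher mutant mean, with a median change of 0.04 and a largest change of 0.22. Of these, Dcn and Lum were nearly level, differing by 0.03 and 0.02. Skeletal muscle markers varied widely, with a mean level of 3.25 to 10.86 on mutant arrays, against 3.21 to 9.71 on wild type arrays. All 13 tested markers of that list had a higher mutant mean (median 1.59), and 0 had an unadjusted limma p under 0.05. With that list as a covariate the change was 0.81 for Ehhadh (adjusted p 0.106) and 1.0 for Acaa1b (adjusted p 0.0740). With the general fat list it was 0.79 for Ehhadh (adjusted p 0.0899) and 1.02 for Acaa1b (adjusted p 0.0784).

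Other peroxisomal genes, 54 in a list outside the 38, were examined in the same fit. Of 38 tested, 31 had a higher mutant mean and 7 a lower one, 2 passed the test and 8 were higher at an unadjusted p under 0.05, with a median of 0.11. Over all tested probe sets 42.4% had a higher mean, 0.0940% were called higher and 4.75% were higher at the unadjusted threshold. Acad11, an acyl-CoA dehydrogenase, rose to 9.57 ± 0.07 in mutants, against 9.16 ± 0.04 in wild type (SD, n = 5 each, change 0.42 ± 0.05 SE, limma adjusted p 0.0235). Ephx2, the soluble epoxide hydrolase, rose to 9.35 ± 0.14 in mutants, against 8.81 ± 0.10 in wild type (SD, n = 5 each, change 0.54 ± 0.08 SE, adjusted p 0.0306). Both were known to be called when the list was drawn up. Tysnd1, the protease that trims imported enzymes, averaged 6.41 ± 0.18 in mutants and 5.95 ± 0.13 in wild type (SD, n = 5 each, change 0.46, adjusted p 0.0881), and its groups did not overlap. Acsl5, a long chain acyl-CoA synthetase, differed by 0.55 (adjusted p 0.262), Ech1, a dienoyl-CoA isomerase, by 0.37 (adjusted p 0.265), and Nudt7, which degrades CoA in the peroxisome, by 0.32 (adjusted p 0.377).

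The receptors that induce peroxisomal genes were measured alongside. Ppara averaged 8.36 ± 0.58 in mutants and 8.56 ± 0.55 in wild type (SD, n = 5 each, change -0.20 ± 0.31 SE, limma adjusted p 0.770). Pparg, the receptor of fat cells, differed by 0.19 (adjusted p 0.560) and Ppard by 0.04 (adjusted p 0.745). Their partners Rxra, Rxrb and Rxrg differed by -0.05 (adjusted p 0.736), 0.04 (adjusted p 0.762) and -0.01 (adjusted p 0.950). Of the coactivators, Ppargc1a differed by 0.02 (adjusted p 0.984), Ppargc1b by 0.43 (adjusted p 0.347) and Med1 by -0.03 (adjusted p 0.820). Nr1h3, a sterol receptor, differed by 0.44 (adjusted p 0.176). Of the 10 tested regulators 6 had a higher mutant mean and 0 passed the test.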

How the data were processed

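Total RNA of mouse aorta, 5 NPAS2 mutant and 5 wild type arrays, was hybridised to Affymetrix MOE 430V2 arrays, per the labels. The authors deposited log2 values, 1 per probe set and array. GCRMA and MAS5 are the tools named, per the submitters' processing notes, which do not say which of them made these values. The log2 scale was read from the range of the values, 1.10 to 14.74. The number of arrays limits the precision.

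Of 45101 probe sets in the table, 64 were controls. Symbols came from the platform annotation, which can be old: 34945 probe sets had 1 gene, 932 several and 9160 none, and those with several are used only where this is stated. Probe sets brighter than the array median on at least 5 arrays were tested, 22340 in all. Mutant minus wild type was fitted with limma 3.58.1 (lmFit and eBayes) in R 4.3.3 as a two-sided test, adjusted by Benjamini-Hochberg over all of them, with a threshold of 0.05. The fit was tested on simulated data. Genes too dim were compared by exact two-sided permutation over all splits of 5 against 5 arrays (smallest p 0.00794). The labels give no batch.

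The peroxisomal genes, the marker lists and the tests were chosen with earlier results of these data known. Named in full were genes that were called, had groups that did not overlap, or had the 3 largest changes of their role. From the other peroxisomal list the called genes and the 4 largest changes were named, and from the regulators all tested genes. From the marker lists that the text gives the leading 2 were named, with further markers picked after their values were seen.

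Alternatives were other filters, scalings and variance models, a plain one-way analysis, averaging a gene's probe sets, leaving out probe sets ending in _x_at or _s_at, list means as covariates and leaving out arrays. RefSeq promoter windows were searched on both strands.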

Additional observations from a re-analysis of the deposited data

Results flagged for a closer look

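For 6 of 76 groups of 5 arrays, 1 array stood apart from the other 4 by more than Dixon's 95% critical value for the gap over the range, where chance gives about 1 group in 20. Mutant F12 was highest for Acot8 at 5.61 (next 5.25) and for Pex14 at 4.88 (next 4.60). Wild type F14_2 was highest for Phyh at 9.94 (next 9.47) and for the dim gene Acox2 at 2.61 (next 2.49). Wild type F15 was highest for Pex14 at 4.64 (next 4.52), and wild type F17 was highest for Pxmp2 at 6.44 (next 6.06).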

How the results depend on the processing

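With all 48 probe sets called in the reported fit as the base, 17 were called with no filter, 141 with a filter at the 75th percentile and 13 by the plain one-way analysis. With a list mean as covariate 0 were called for brown fat, 7 for skeletal muscle and 9 for general fat; without the 4 arrays highest in skeletal muscle markers (mutant F12, F19 and F20, wild type F16), 0 were called, and without 1 array at a time 9 to 43. Of the 2 called peroxisomal genes, 1 (Acaa1b) was called after centring arrays on their median, where Ehhadh had a limma adjusted p of 0.0531. With no filter, by the plain one-way analysis, with each of the 3 covariates and without those 4 arrays, 0 were called, with 13, 11, 4 (brown fat, 2 higher and 2 lower), 8 (skeletal muscle), 9 (general fat) and 6 at an unadjusted p under 0.05; without 1 array at a time 0 to 2 were called. The count of 13 with no filter is over all 38 genes, the dim ones included. Of all 22340 tested probe sets, 1516 met that unadjusted threshold with the brown fat covariate. With the skeletal muscle covariate 2899 met it, and with the general fat covariate 3019. Such counts for the other settings are not given here. The brown fat covariate moved the median change to 0.011 for oxidation enzymes and -0.091 for Pex genes. The general fat covariate and the fit without 4 arrays were added after the data were seen. Quantile normalisation called 32 higher and 29 lower, and centring 17 higher and 31 lower, against 21 higher and 27 lower. Of 803 single-gene values under the alternatives 770 stayed on their side of the threshold, 32 lost it and 1 gained it. The dim genes were scored here by their unadjusted permutation p, and of them only Acot3 was under 0.05. Of the tested genes only Acaa1b and Ehhadh had a call, so most of the 770 were values with no call to lose. Without 1 array at a time, Ehhadh kept its call in 1 of 10 fits and Acaa1b in 2 of 10. Of the 803 values 42 changed sign, 13 of them with the brown fat covariate, all of them values that passed in neither fit. The cause of these shifts was not tested. No paired analysis was possible because the groups share no replicate number.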
